A study of Mus musculus with 3 samples.

Results

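The colony-stimulating factors and their receptors were followed through single cells of the subcutaneous fat depot of the mouse groin (inguinal adipose tissue). The family was taken as 8 genes, the ligands Csf1, Il34, Csf2 and Csf3 and the receptor chains Csf1r, Csf2ra, Csf2rb and Csf3r, found by symbol among the 31053 features of each library. All 8 were present once, and their rows were read by cell class and by library. The libraries held stromal and vascular cells from which dead cells and red blood cells had been removed, made with 10x 3' v3 chemistry. There was 1 library each of Pdgfra-Cre; TERT fl/fl (called Pdgfra-Cre below), of Pdgfrb-Cre; TERT fl/fl (Pdgfrb-Cre) and of TERT +/+ (wild type), so genotype and library cannot be told apart and no test between genotypes was possible. TERT is the catalytic subunit of telomerase. Cre driven by a platelet-derived growth factor receptor promoter recombines the floxed gene in mesenchymal cells that use it, so endothelial cells and leukocytes of these mice need not carry the deletion. The labels give no age, sex or number of animals, and the wild-type title also carries the unexplained abbreviation PBS.

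CSF1 and interleukin 34 are alternative ligands of one receptor tyrosine kinase, CSF1R, which macrophages and monocytes need for survival. CSF2, or GM-CSF, acts on myeloid cells through CSF2RA, its own binding chain, joined to CSF2RB, the beta chain shared with the receptors for interleukins 3 and 5. CSF3, or G-CSF, acts through CSF3R, drives neutrophil production and releases neutrophils from bone marrow, and is made by endothelial and stromal cells under inflammatory stimuli. In adipose tissue, CSF1 is known as a stromal product that sustains macrophages.

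The libraries held 14438471 UMIs (unique molecular identifiers, 1 per captured transcript) in 2310 barcodes for Pdgfra-Cre, 30826733 in 4355 for Pdgfrb-Cre and 13352288 in 4124 for wild type. After filtering, 1409, 3903 and 2668 cells were kept in that order, with medians of 7522, 5675 and 3321 UMIs. The libraries shared 1 to 5 barcodes by pair, at most 2 of them among kept cells. Tert gave 7, 10 and 16 UMIs over all barcodes, and no source used here says which exons were removed, so a 3' tag does not check the deletion. Classes are named by markers and mean cells like that class. Stromal cells numbered 623 in Pdgfra-Cre, 569 in Pdgfrb-Cre and 249 in wild type. Blood endothelial cells numbered 124, 200 and 622, and macrophages 63, 113 and 73. In each library these classes showed UMIs of all 10, 10 and 12 of their own markers. That alone does not set them apart, since stromal cells also showed UMIs of all 10 blood endothelial markers. Over the libraries together, the median own marker was seen in 88.06%, 71.88% and 62.85% of their cells. Stromal cells of the libraries lay largely in different clusters: 504 Pdgfra-Cre cells in cluster 5 (led by Sult1e1, Inmt and Penk), 331 Pdgfrb-Cre cells in cluster 19 (Has1, Dmkn, Pi16) and 219 in cluster 8 (Mmp3, Cxcl14, Cxcl13), and 185 wild-type cells in cluster 21 (Col1a1, Postn, Pi16). Stromal depth differed too, with medians of 9655 UMIs in Pdgfra-Cre, 10496 in Pdgfrb-Cre and 1667 in wild type. The immediate early genes Fos, Jun and Egr1, which also respond to tissue dissociation, summed to 12674, 5054 and 2247 CPM (UMIs per 1000000 UMIs of a class) in the stromal cells of those libraries, and to 6372, 6430 and 3230 in blood endothelial cells. In the same stromal cells the transcription factor gene Tcf21 was 121, 0.989 and 3.48 CPM, and Wt1 was 147, 0.660 and 1.16 CPM. The 120 mesothelial cells were found only in Pdgfra-Cre. Whether the dissected tissue differed between the libraries was not tested. The part of all these differences in the results below was not tested.

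Promoter windows of RefSeq (build GRCm38.p6) were read for 4 of the 8 members, and Csf1r was left out of that search. Those of Csf1 and Csf2ra are shown as examples of a stromal ligand and a leukocyte receptor. Both reach the start of the annotated gene, whereas the Csf2 window stops 232 bases short of it. The Csf3r window has 109 of its bases inside the gene and is not shown. The Csf1 window ends at that start, and the last 11 bases of the Csf2ra window lie inside the gene. Each runs 5' to 3' on the minus strand, over the 250 bases before the RefSeq start. Capitals mark matches, on either strand, to the kappa-B type motif (GGGA and CC with any 4 bases between) in Csf1, and to the PU.1 core GAGGAAG and the C/EBP motif TTNNGNAA in Csf2ra.
Csf1, chr3:107760470-107760719: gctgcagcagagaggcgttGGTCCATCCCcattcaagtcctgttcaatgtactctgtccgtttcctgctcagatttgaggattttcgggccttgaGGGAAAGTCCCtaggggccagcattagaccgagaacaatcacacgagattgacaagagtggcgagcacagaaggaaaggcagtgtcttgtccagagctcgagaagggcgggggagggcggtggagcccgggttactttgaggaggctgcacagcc
Csf2ra, chr19:61228419-61228668: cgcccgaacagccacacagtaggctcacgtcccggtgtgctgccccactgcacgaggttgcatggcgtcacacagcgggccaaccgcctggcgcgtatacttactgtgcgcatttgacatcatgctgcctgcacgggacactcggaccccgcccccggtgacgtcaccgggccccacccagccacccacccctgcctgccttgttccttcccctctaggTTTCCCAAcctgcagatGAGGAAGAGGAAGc
The Csf1 window held the kappa-B letters at bases -231 to -222, -155 to -146 and -154 to -145 before the start, the last 2 overlapping. A match was present in 17.71% of the 32536 windows in the table. The Csf2ra window held the PU.1 core at -14 to -8 and -8 to -2, which share 1 base and of which the second lies inside the annotated gene, and the C/EBP motif at -31 to -24. Those motifs were present in 10.66% and 36.8% of all windows. The AP-1 motif TGANTCA, in 6.73% of windows, was in neither. A match describes letters and no binding.

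Csf1 (chromosome 3, 107741048 to 107760469, minus strand of GRCm38 in GENCODE M21, as for the other genes) was the ligand of the stromal cells. Stromal cells gave 1073 of the 1221 Csf1 UMIs of Pdgfra-Cre (87.9%), 1969 of 2162 in Pdgfrb-Cre (91.1%) and 149 of 305 in wild type (48.9%), where blood endothelial cells, the most numerous cells of that library outside the leukocytes, gave another 29.2%. Stromal Csf1 was 188 CPM (177 to 200) in Pdgfra-Cre, 325 (311 to 339) in Pdgfrb-Cre and 173 (146 to 203) in wild type, where brackets hold exact 95% Poisson intervals for counting error alone. Over wild type, the ratio was 1.09 (95% interval 0.917 to 1.30) for Pdgfra-Cre and 1.88 (1.59 to 2.24) for Pdgfrb-Cre. Stromal Csf1 was thus higher in Pdgfrb-Cre than in either other library beyond counting error, but under 2-fold over wild type. By the mean of CPM per cell, that ratio was 2.23.

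At least 1 Csf1 UMI was seen in 66.0% of Pdgfra-Cre, 79.1% of Pdgfrb-Cre and 30.9% of wild-type stromal cells. With each cell thinned to 1000 UMIs the expected shares were 16.1%, 25.2% and 13.3%, which left wild type close to Pdgfra-Cre and below Pdgfrb-Cre. Lymphoid cells (the classes named B, T, NK and plasma cells) had a Csf1 UMI in 3.34%, 0.760% and 1.11% of cells, at medians of 5063, 5019 and 4191 UMIs. That group leaves out the unnamed clusters with T cell genes and was not taken as free of Csf1. By cluster, Pdgfrb-Cre had 351 CPM (325 to 379) in cluster 8 and 318 (300.4 to 335.5) in cluster 19, and Pdgfra-Cre had 185 (173 to 197) in cluster 5. In cluster 21, Csf1 was 280 CPM in the 21 Pdgfra-Cre cells, 206 in the 18 Pdgfrb-Cre cells and 187 in the 185 wild-type cells, with intervals that overlapped throughout (210 to 366, 139 to 295 and 154 to 225). Within Pdgfrb-Cre, cluster 21 was thus below clusters 8 and 19, and within Pdgfra-Cre it was above cluster 5, in both cases with intervals that did not overlap. The 30 wild-type cells of cluster 28 had 42.5 CPM (11.6 to 109) on 4 UMIs, below the wild-type cells of cluster 21.

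Outside the stroma, Csf1 was 27.03 CPM in Pdgfra-Cre, 37.6 in Pdgfrb-Cre and 39.1 in wild-type blood endothelial cells, with ratios of 0.691 (0.425 to 1.09) and 0.961 (0.702 to 1.31). The venule-type endothelial cluster 11, led by the selectins Selp and Sele and by Glycam1, was the vessel cluster with most, at 56.5, 93.7 and 95.1 CPM. Mural cells, the contractile cells around vessels, had 13.2, 48.3 and 31.1 CPM, from 5, 29 and 17 UMIs. The mural class also carried the 10 blood endothelial markers, at sums of 28290, 22584 and 13842 CPM, above its own 10 mural markers (13984, 11085 and 9689 CPM). In blood endothelial cells the endothelial markers summed to 42170, 45414 and 35259 CPM. The part of endothelial transcripts in mural values was not tested. The 120 mesothelial cells, found only in Pdgfra-Cre, had 55.9 CPM (45.3 to 68.1). Among leukocytes, 5 of the 8 mast cells of Pdgfrb-Cre held 17 UMIs (508 CPM), and neutrophils had 89.0, 114 and 156 CPM on 2, 10 and 8 UMIs. In cluster 22, led by regulatory T cell genes such as Foxp3 and Ctla4, 9 of 98 wild-type cells held 16 UMIs (32.7 CPM), against 5 UMIs in 201 Pdgfrb-Cre cells (4.72 CPM), a ratio of 0.144 (0.0413 to 0.412). Macrophages, the cells that respond to CSF1, gave 0, 7 and 1 UMIs.

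Il34 (chromosome 8, 110741829 to 110805924, minus strand) was found in mural cells of every library and in stromal cells mainly of Pdgfrb-Cre. Stromal cells had 5.96 CPM (4.13 to 8.33, 34 UMIs) in Pdgfra-Cre, 51.0 (45.4 to 57.0, 309 UMIs) in Pdgfrb-Cre and 25.5 (16.0 to 38.6, 22 UMIs) in wild type. The ratio over wild type was 0.234 (0.133 to 0.419) for Pdgfra-Cre and 1.998 (1.30 to 3.24), just short of 2-fold, for Pdgfrb-Cre. Il34 also differed by stromal cluster. Cluster 19 of Pdgfrb-Cre held 298 UMIs in 134 of 331 cells (74.1 CPM), and cluster 21 of wild type had 35.4 CPM, whereas cluster 8 of Pdgfrb-Cre had 5.31 and cluster 5 of Pdgfra-Cre 5.36.

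Both Il34-bearing clusters count Pi16, a mark of interstitial progenitors, among their leading genes. Stromal cells with a UMI of Pi16 or Dpp4 had 4.97 CPM of Il34 in Pdgfra-Cre, 62.2 in Pdgfrb-Cre and 37.2 in wild type. Stromal cells with neither had 6.35, 7.24 and 3.35 CPM. The gate divided Il34 levels in Pdgfrb-Cre and wild type and not in Pdgfra-Cre, where 149 of 623 stromal cells passed it. Detection of Pi16 or Dpp4 rises with depth, which differed between the libraries. Both CSF1R ligands were found together in 18 of 623, 128 of 569 and 9 of 249 stromal cells.

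Mural Il34 was 63.5 CPM (40.7 to 94.5) in Pdgfra-Cre, 54.9 (37.8 to 77.2) in Pdgfrb-Cre and 75.1 (53.9 to 102) in wild type, levels whose intervals overlapped. In blood endothelial cells Il34 was 2.16, 9.74 and 10.98 CPM, from 2, 21 and 25 UMIs, and 17 of the 25 wild-type UMIs lay in cluster 27, led by Esm1 and Col13a1, which held 0, 4 and 105 cells. The Pdgfra-Cre ratio of 0.197 (0.0226 to 0.790) did not hold its direction with a stricter cell filter (1000 genes or more, mitochondrial UMIs up to 10%), where the log2 ratio was 0.18. The Pdgfrb-Cre ratio, 0.887, was 2.17 with that filter. Mesothelial cells of Pdgfra-Cre had 17.3 CPM in 24 of 120 cells. Lymphoid cells gave 0, 3 and 0 UMIs, and no macrophage of any library held one.

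Csf2 (chromosome 11, 54247271 to 54249667, minus strand) was rare everywhere, with 5 UMIs in Pdgfra-Cre, 142 in Pdgfrb-Cre and 6 in wild type. In Pdgfrb-Cre, 79 UMIs lay in 11 of the 569 stromal cells (13.03 CPM, 10.3 to 16.2), against 0 in the 623 Pdgfra-Cre cells and 2 in the 249 wild-type cells, and the ratio over wild type was 5.62 (1.51 to 47.2). A single cell held 39 of them and the next 7, and without that cell the level was 6.63 CPM. All 11 cells also held Csf1, as did 450 of the 569 Pdgfrb-Cre stromal cells as a whole. By the mean of CPM per cell the ratio was 1.77, so the call rests on a few cells.

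The other source was cluster 15, led by the interleukin 17 genes Il17f and Il17a, a T cell-type cluster left unnamed. There 11 of 152 Pdgfrb-Cre cells held 48 Csf2 UMIs (57.1 CPM). In Pdgfra-Cre 2 of 15 cells held 2 UMIs, and in wild type 1 of 15 cells held 1 UMI. With so few cells in those libraries, the levels were not compared. In cluster 16, led by the gamma-delta T cell gene Trdc, 6 of 67 Pdgfrb-Cre cells held 7 UMIs (19.7 CPM). The class named NK, led by Gzma and Xcl1, gave 2, 4 and 2 UMIs. It also carried the T cell gene Cd3e at 442, 195 and 141 CPM, against 273, 220 and 405 in T cells. All 10 T cell markers were each seen in over 10% of its cells, at a median of 59.5% of cells against 38.1% for the NK markers. Blood endothelial cells and macrophages gave 0 in every library.

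Csf3 (chromosome 11, 98701263 to 98703629, plus strand) differed most of the 8 between libraries. It had 118 UMIs in Pdgfra-Cre, 472 in Pdgfrb-Cre and 2 in wild type. Blood endothelial cells gave 84.7% and 85.6% of the first 2 totals, or 100 UMIs at 108 CPM (88.0 to 132) in Pdgfra-Cre and 404 UMIs at 187 CPM (170 to 207) in Pdgfrb-Cre, against 1 UMI at 0.439 CPM (0.0111 to 2.45) in wild type. The ratio was 246 (43.2 to 9816) for Pdgfra-Cre and 427 (76.1 to 16892) for Pdgfrb-Cre, with the width set by the single wild-type UMI. Among all genes with at least 10 UMIs over both libraries, 5.29% in Pdgfra-Cre and 7.51% in Pdgfrb-Cre endothelial cells were over 2-fold above wild type.

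Within the endothelium, Csf3 was held by cluster 11. There 11 of 28 Pdgfra-Cre cells held 99 UMIs (329 CPM, 267 to 401) and 20 of 25 Pdgfrb-Cre cells held 358 (1198 CPM, 1077 to 1328), against 1 UMI in 1 of 168 wild-type cells. Csf3 was not used to form the clusters, although it is itself among the leading genes of this one. Thinned to 1000 UMIs per cell, the expected share of cells with a UMI was 14.3% in Pdgfra-Cre, 45.8% in Pdgfrb-Cre and 0.0189% in wild type. A single cell held 43 of the Pdgfra-Cre UMIs and 96 of the Pdgfrb-Cre UMIs, and without it 196 and 911 CPM remained. Summed Fos, Jun and Egr1 in cluster 11 were 6047 CPM in Pdgfra-Cre, 4108 in Pdgfrb-Cre and 4211 in wild type, and over all blood endothelial cells they were higher in Pdgfra-Cre and Pdgfrb-Cre, as given above. Their part in the Csf3 difference was not tested. Haemoglobin transcripts in these cells were 53125, 0 and 9.84 CPM, and leaving out barcodes of over 10% haemoglobin UMIs changed none of the members' calls past 2-fold.

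The capillary-type cluster 10, led by Gpihbp1, held 45 Csf3 UMIs in 7 of 133 Pdgfrb-Cre cells and 0 in 262 wild-type cells. In Pdgfra-Cre, 99 of the 100 endothelial UMIs lay in cluster 11, so its capillary-type cells were not like those of Pdgfrb-Cre. Stromal cells gave 14, 19 and 0 UMIs, in 7 cells each of Pdgfra-Cre and Pdgfrb-Cre, levels of 2.45 and 3.13 CPM that lie under the 3.48 CPM that 3 UMIs would give in the shallower wild-type class. Mural cells of Pdgfrb-Cre, the class with 22584 CPM of blood endothelial markers, gave 8 UMIs in 4 of 42 cells. A further 38 UMIs lay in 2 Pdgfrb-Cre cells of a small keratin-expressing cluster, 34 of them in a cell of 150384 UMIs in all. Lymphoid cells gave 0, 1 and 1 UMIs.

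**Figure D1:**
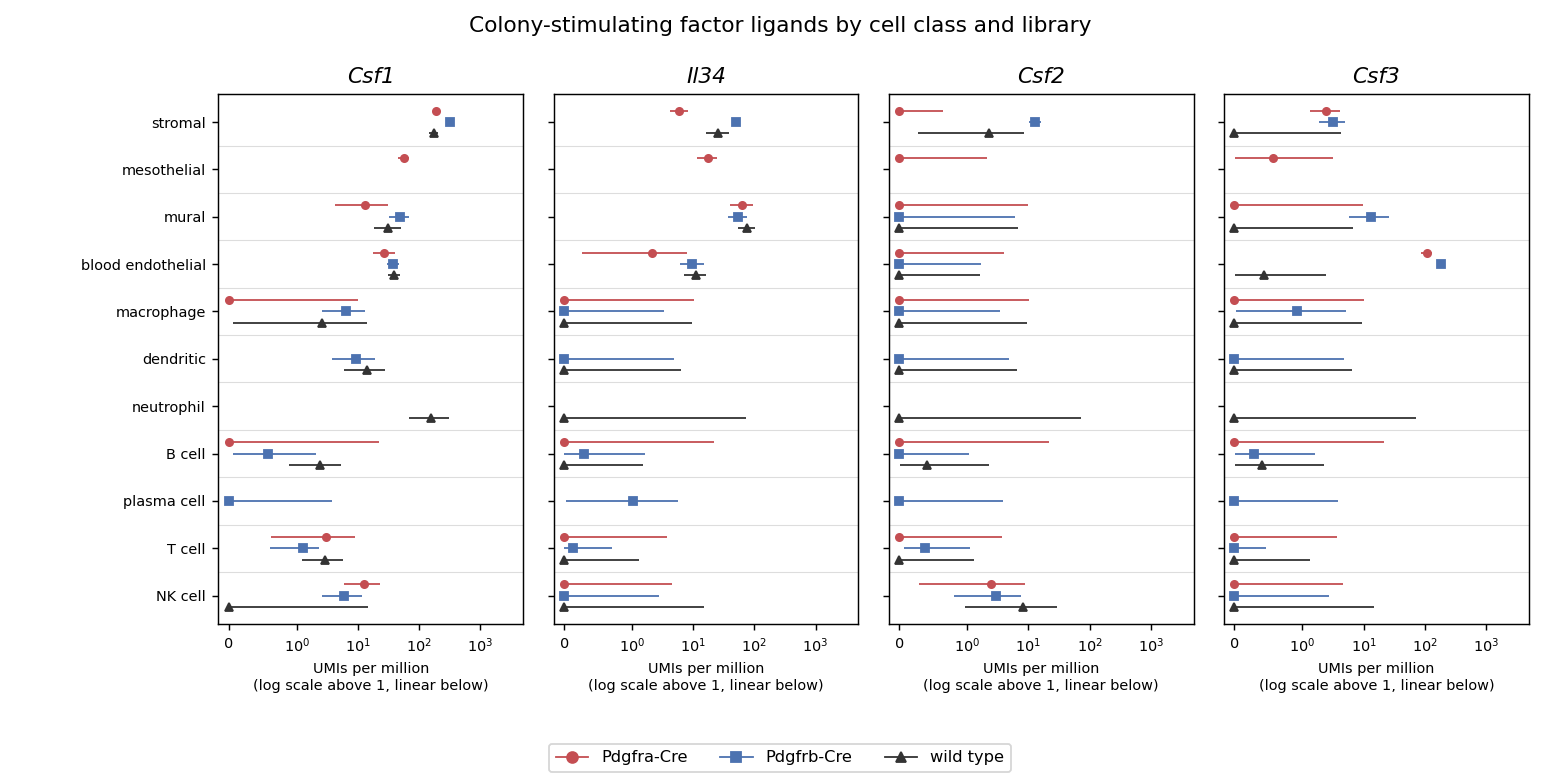
Ligand levels by cell class in CPM (log axis above 1, linear below), a point per library with at least 20 cells and bars for exact 95% Poisson intervals. Csf1 is highest in stromal cells (188, 325 and 173 CPM in Pdgfra-Cre, Pdgfrb-Cre and wild type) and Csf3 in blood endothelial cells of Pdgfra-Cre and Pdgfrb-Cre (108 and 187 CPM against 0.439 in wild type).

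**Figure D2:**
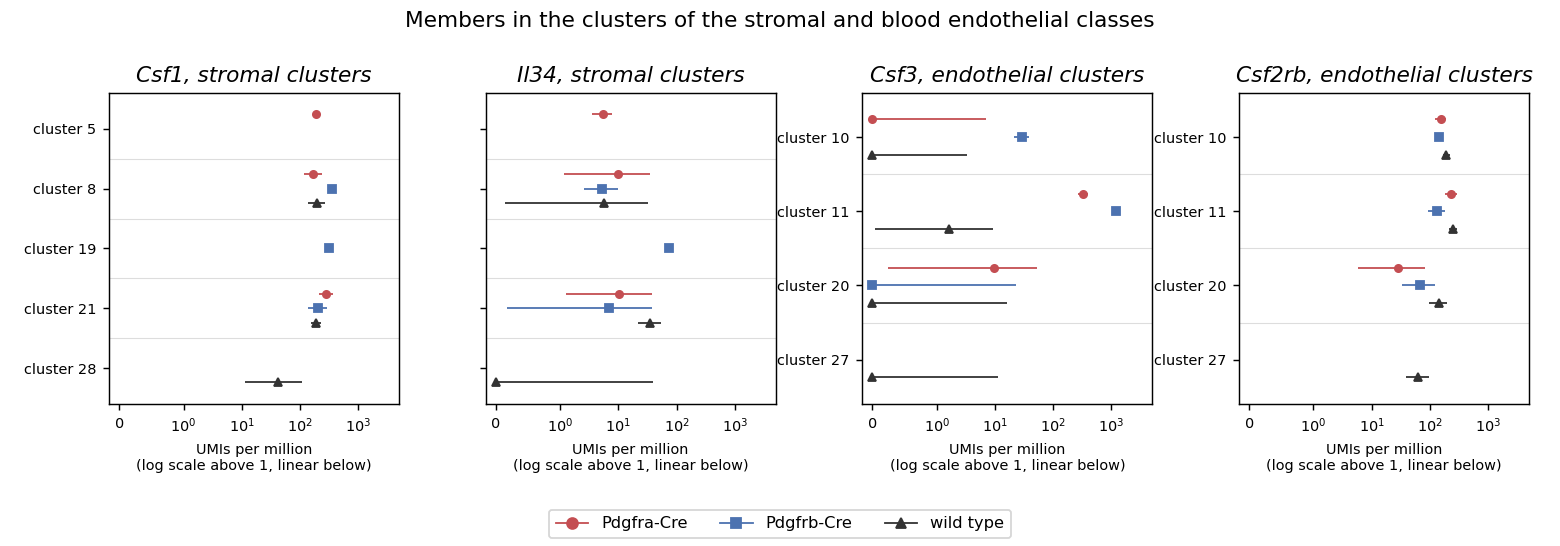
Levels in single clusters in CPM, a point per library with at least 10 cells and bars for 95% Poisson intervals, with Csf1 and Il34 over stromal clusters and Csf3 and Csf2rb over endothelial clusters. Il34 reaches 74.1 CPM in cluster 19 of Pdgfrb-Cre and 5.31 in its cluster 8, and Csf3 in cluster 11 reaches 329 CPM in Pdgfra-Cre and 1198 in Pdgfrb-Cre, against a single UMI in wild type.

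Csf1r (chromosome 18, 61100598 to 61132149, plus strand), the kinase that marks mononuclear phagocytes, was the member with the closest levels between libraries in its main class. Macrophages had 482 CPM (413 to 559, 174 UMIs) in Pdgfra-Cre, 526 (484 to 571, 573 UMIs) in Pdgfrb-Cre and 489 (422 to 564, 190 UMIs) in wild type. A single cell held 38 of the 174 Pdgfra-Cre UMIs. Ratios over wild type were 0.986 (0.798 to 1.22) and 1.08 (0.912 to 1.27), intervals that leave out a 1.5-fold difference in either direction as far as counting error goes. Csf1r was seen in 60.3%, 91.2% and 56.2% of macrophages at medians of 2132, 9357 and 2346 UMIs, and in 32.9%, 40.6% and 31.6% after thinning to 1000. Lymphoid cells gave 0, 3 and 1 UMIs.

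Macrophages with a UMI of a C1q gene, a tissue macrophage mark, had 530, 598 and 506 CPM of Csf1r, and those without had 432, 390 and 436. A single cell held 38 of the 76 UMIs in the 15 Pdgfra-Cre macrophages without C1q. Csf1r was higher with C1q than without in all 3 libraries, with intervals that overlapped in Pdgfra-Cre and wild type but not in Pdgfrb-Cre. Macrophages held 49.2%, 81.5% and 83.7% of all Csf1r UMIs. The largest other share in Pdgfra-Cre and Pdgfrb-Cre lay in cluster 0-1, an unnamed monocyte-type cluster led by Ear2, Treml4 and Lst1, with 110 UMIs in 17 Pdgfra-Cre cells (805 CPM) and 61 UMIs in 11 Pdgfrb-Cre cells (1012 CPM). Wild type had 2 cells there.

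Other carriers of Csf1r differed by library. In dendritic cells there were 8, 24 and 0 UMIs (42.2, 31.7 and 0 CPM), which puts Pdgfrb-Cre at least 6.04-fold above a floor of 3 UMIs in wild type. Of the 24, 20 lay in cluster 0-4, led by Cd209a and Clec10a, with 15 Pdgfrb-Cre and 2 wild-type cells, while 88 of the 107 wild-type dendritic cells lay in cluster 26, led by Ccl22 and Fscn1. In neutrophils there were 1, 1 and 12 UMIs in 7, 18 and 25 cells. Lyz2, shared by monocytes and neutrophils, was 1779, 4514 and 10546 CPM in those cells, and its part was not tested. In the mesothelial cells of Pdgfra-Cre, 27 of 120 cells held 39 UMIs (22.5 CPM). Blood endothelial cells gave 11, 13 and 7 UMIs and a Pdgfra-Cre ratio of 3.87 (1.37 to 11.8), but 9 of the 11 lay in a single cell and by the mean of CPM per cell the log2 ratio was -0.28.

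Csf2ra (chromosome 19, 61223957 to 61228429, minus strand), the binding chain for GM-CSF, was carried by macrophages, dendritic cells and cells of unnamed clusters. It had 133, 199 and 109 UMIs in all kept cells of Pdgfra-Cre, Pdgfrb-Cre and wild type. In the unnamed clusters 15 of 77, 22 of 513 and 13 of 284 cells held it, and the unnamed cluster 0-0 has Csf2ra among its leading genes. Macrophages had 125, 88.1 and 103 CPM, from 45, 96 and 40 UMIs, with ratios of 1.21 (0.773 to 1.90) and 0.856 (0.586 to 1.27). Dendritic cells had 137 CPM in Pdgfra-Cre (26 UMIs in 15 cells), 43.6 in Pdgfrb-Cre and 43.7 in wild type. The Pdgfrb-Cre ratio there was 0.997 (0.575 to 1.75). In contrast to Csf1r, macrophages without C1q had more than those with it, at 153, 116 and 149 CPM against 97.3, 73.2 and 88.2, although these intervals overlapped within each library. Blood endothelial cells gave 2, 2 and 6 UMIs.

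Csf2rb (chromosome 15, 78325752 to 78353847, plus strand), the shared beta chain, had its largest pool in blood vessels. Blood endothelial cells held 153 of 311 UMIs in Pdgfra-Cre (49.2%), 283 of 792 in Pdgfrb-Cre (35.7%) and 416 of 639 in wild type (65.1%), at 165, 131 and 183 CPM. The Pdgfra-Cre ratio was 0.905 (0.747 to 1.09), and that of Pdgfrb-Cre, 0.718 (0.616 to 0.838), was lower beyond counting error though within 2-fold. The gene was seen in 46.0%, 56.5% and 30.9% of these cells, and in 12.4%, 12.2% and 14.7% after thinning, against 3.04%, 0.507% and 0.854% of lymphoid cells unthinned. Cluster 10 had 155, 143 and 190 CPM and cluster 11 had 233, 131 and 251.

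The chain that would complete a GM-CSF receptor was nearly absent from the same vessels. Of 57, 113 and 192 endothelial cells with Csf2rb, 1, 2 and 4 also held Csf2ra. A count of 0 in a cell does not show absence at this depth. In macrophages both chains were seen in 13 of 63 cells (20.6%), 40 of 113 (35.4%) and 11 of 73 (15.1%), and in dendritic cells in 18 of 65 Pdgfrb-Cre and 7 of 107 wild-type cells.

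In macrophages Csf2rb was 114 CPM (81.5 to 154) in Pdgfra-Cre, 179 (155 to 206) in Pdgfrb-Cre and 72.03 (47.9 to 104) in wild type. The Pdgfrb-Cre ratio of 2.48 (1.67 to 3.84) passed 2-fold, which 13.8% of all genes did upward in that class, and the Pdgfra-Cre ratio was 1.58 (0.952 to 2.65), where 10.2% of genes passed. In cluster 7 alone, which holds most macrophages of each library, the ratios were 2.06 (1.16 to 3.81) and 3.20 (1.97 to 5.51). Csf2rb was higher in Pdgfrb-Cre than in wild type both in macrophages without C1q (264 against 117 CPM) and in those with it (134 against 57.7 CPM), and in Pdgfra-Cre the levels were 176 and 54.0 CPM. Macrophage Csf2ra, in the same cells, stayed within 2-fold of wild type in both. Dendritic cells had 169, 238 and 163 CPM, and 4 of the 8 mast cells of Pdgfrb-Cre held 28 UMIs. Mural cells had 52.9, 58.3 and 98.9 CPM, beside 28290, 22584 and 13842 CPM of blood endothelial markers.

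The neighbouring gene Csf2rb2 (chromosome 15, 78282507 to 78305721, minus strand) encodes the mouse beta chain specific to interleukin 3. It shares 28.9% of the 31-base words of the main Csf2rb transcript, but 6 of 470 (1.28%) in the last 500 bases, where 3' tags lie. In shorter annotated Csf2rb transcripts 18.1% to 47.1% of the end words are shared, so some reads could be split between the genes. Csf2rb2 was 57.3, 55.2 and 69.0 CPM in blood endothelial cells, and 11.1, 34.9 and 23.1 in macrophages on 4, 38 and 9 UMIs. In cluster 11 it was 99.7, 90.3 and 188 CPM. Of the 5 listed genes of the beta-chain family, only Csf2rb2 and Il3ra, the binding chain for interleukin 3, reached 10 UMIs in macrophages. In each comparison 0 were higher and 1 lower. These were Csf2rb2 at 0.479 in Pdgfra-Cre, on 4 UMIs against 9, and Il3ra at 0.431 in Pdgfrb-Cre. Of all macrophage genes, 10.2% were higher and 16.8% lower in Pdgfra-Cre, and 13.8% and 13.5% in Pdgfrb-Cre. With so few genes counted, neither count was read as a result.

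Csf3r (chromosome 4, 126024550 to 126044440, plus strand), the G-CSF receptor, marked neutrophils. It was seen in 7 of 7, 15 of 18 and 17 of 25 neutrophils, at 1868 CPM (1346 to 2525), 728 (560 to 929) and 1070 (806 to 1393). These few cells held 60.0%, 53.3% and 78.6% of its UMIs. Macrophages had 36.0, 44.1 and 30.9 CPM from 13, 48 and 12 UMIs, with ratios of 1.17 (0.491 to 2.80) and 1.43 (0.747 to 2.95). Of the macrophages with Csf3r, 11 of 11, 31 of 34 and 6 of 8 also held Csf1r. Cluster 0-1 of Pdgfra-Cre had 80.5 CPM. Blood endothelial cells, the source of Csf3, gave 1, 3 and 0 UMIs of its receptor.

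**Figure D3:**
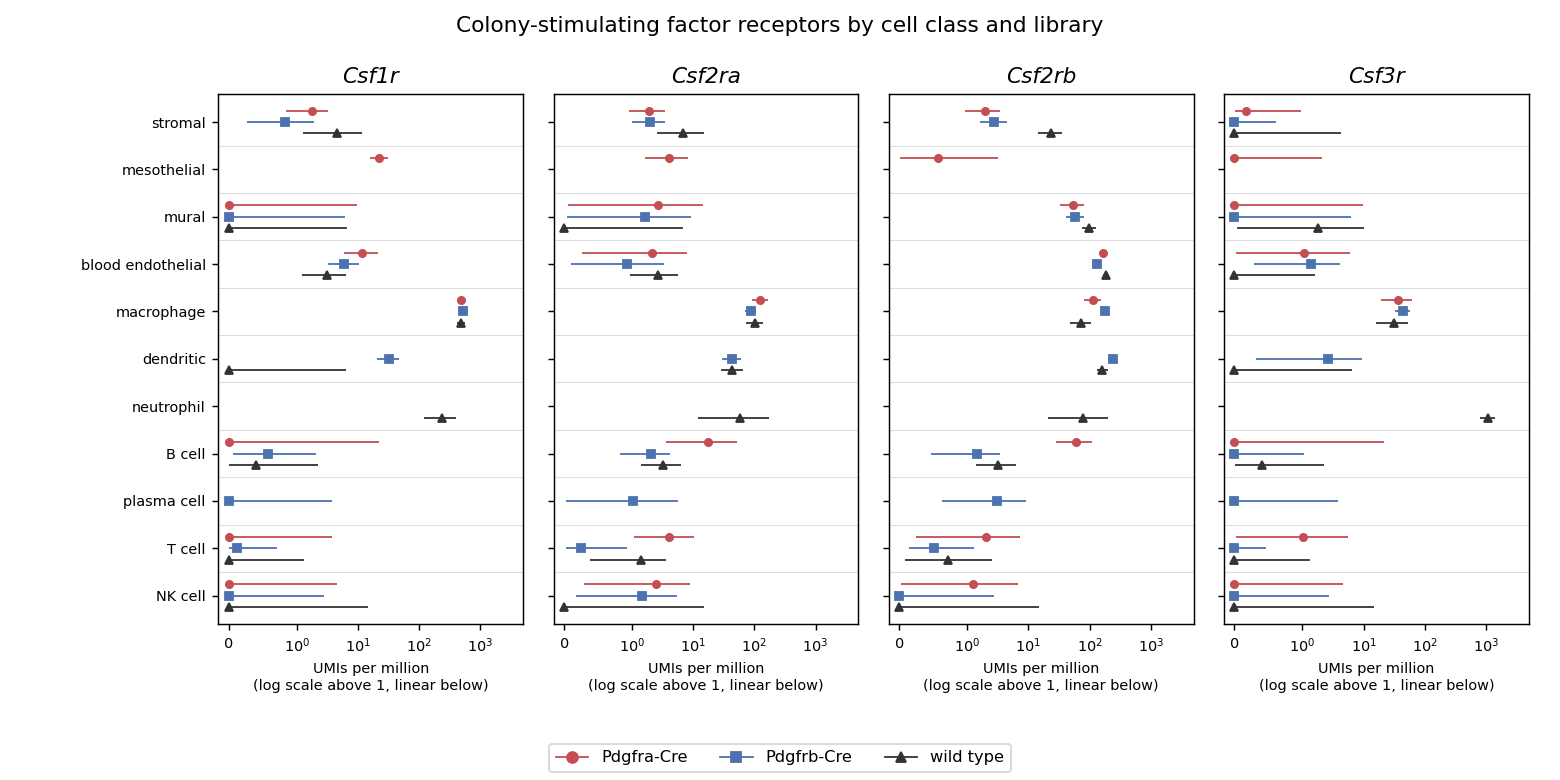
Receptor levels by cell class in CPM (log axis above 1, linear below), a point per library with at least 20 cells and bars for exact 95% Poisson intervals. Csf1r lies at 482, 526 and 489 CPM in macrophages of Pdgfra-Cre, Pdgfrb-Cre and wild type, and Csf2rb at 165, 131 and 183 CPM in blood endothelial cells, where Csf2ra has at most 2.64 CPM.

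In the stroma all 4 receptor chains were low, and Csf2rb and Csf2ra were lower in Pdgfra-Cre and Pdgfrb-Cre than in wild type beyond counting error. Stromal Csf2rb was 1.93, 2.80 and 23.2 CPM, from 11, 17 and 20 UMIs, with ratios of 0.0832 (0.0360 to 0.182) and 0.121 (0.0595 to 0.243). Lymphoid cells had 7.54, 0.885 and 1.80 CPM of it. Of the 20 wild-type UMIs, 19 lay in 5 cells of cluster 8, 8 of them in a single cell. Csf2ra was 1.93, 1.98 and 6.96 CPM, with ratios of 0.277 (0.0940 to 0.913) and 0.285 (0.0988 to 0.924), Csf1r was 1.75, 0.825 and 4.64 CPM on only 10, 5 and 4 UMIs, and Csf3r gave 1, 0 and 0 UMIs. Leukocyte transcripts moved the same way in these cells. The pan-leukocyte gene Ptprc was 1.93, 10.7 and 67.2 CPM, the 10 T cell markers summed to 6.14, 28.2 and 286 CPM, and the signalling adaptor Tyrobp was 3.68, 5.61 and 55.7 CPM. The macrophage markers did not order the libraries that way, with sums of 3355, 685 and 3577 CPM. Only 1 of these 12 markers was seen in at least 10% of all stromal cells, and the median was 1.11% of cells. The sum can thus follow a single gene and is no measure of macrophage transcripts. The part of leukocyte transcripts in the stromal receptor values was not tested.

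Counting every member in every class of at least 50 cells in both libraries, with at least 10 UMIs over both, gave 17 member and class pairs for Pdgfra-Cre. Of these, 2 were past 2-fold higher than wild type (Csf3 and Csf1r in blood endothelial cells) and 5 past 2-fold lower (Il34, Csf1r, Csf2ra and Csf2rb in stromal cells, Il34 in blood endothelial cells), and 22.7% of all 46487 gene and class pairs were past 2-fold either way, with 11.1% of all pairs past it in the higher direction. For Pdgfrb-Cre, 4 of 22 pairs were higher (Csf2 in stromal, Csf3 in blood endothelial, Csf1r in dendritic cells and Csf2rb in macrophages) and 4 lower (Csf2ra and Csf2rb in stromal cells, Csf1 in T cells and Csf2rb in B cells), against 26.6% of all 67203 pairs either way and 10.7% higher. Since 8 genes stand behind all these pairs, neither share was read as particular to the family. The T and B cell pairs rest on 18 and 13 UMIs, with ratios of 0.447 (0.159 to 1.30) and 0.449 (0.116 to 1.56), and those cells lay in different clusters of the libraries (clusters 1, 4 and 2 in Pdgfrb-Cre, 9 and 25 in wild type). Both comparisons use the same wild-type library, so they are not independent.

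**Figure D4:**
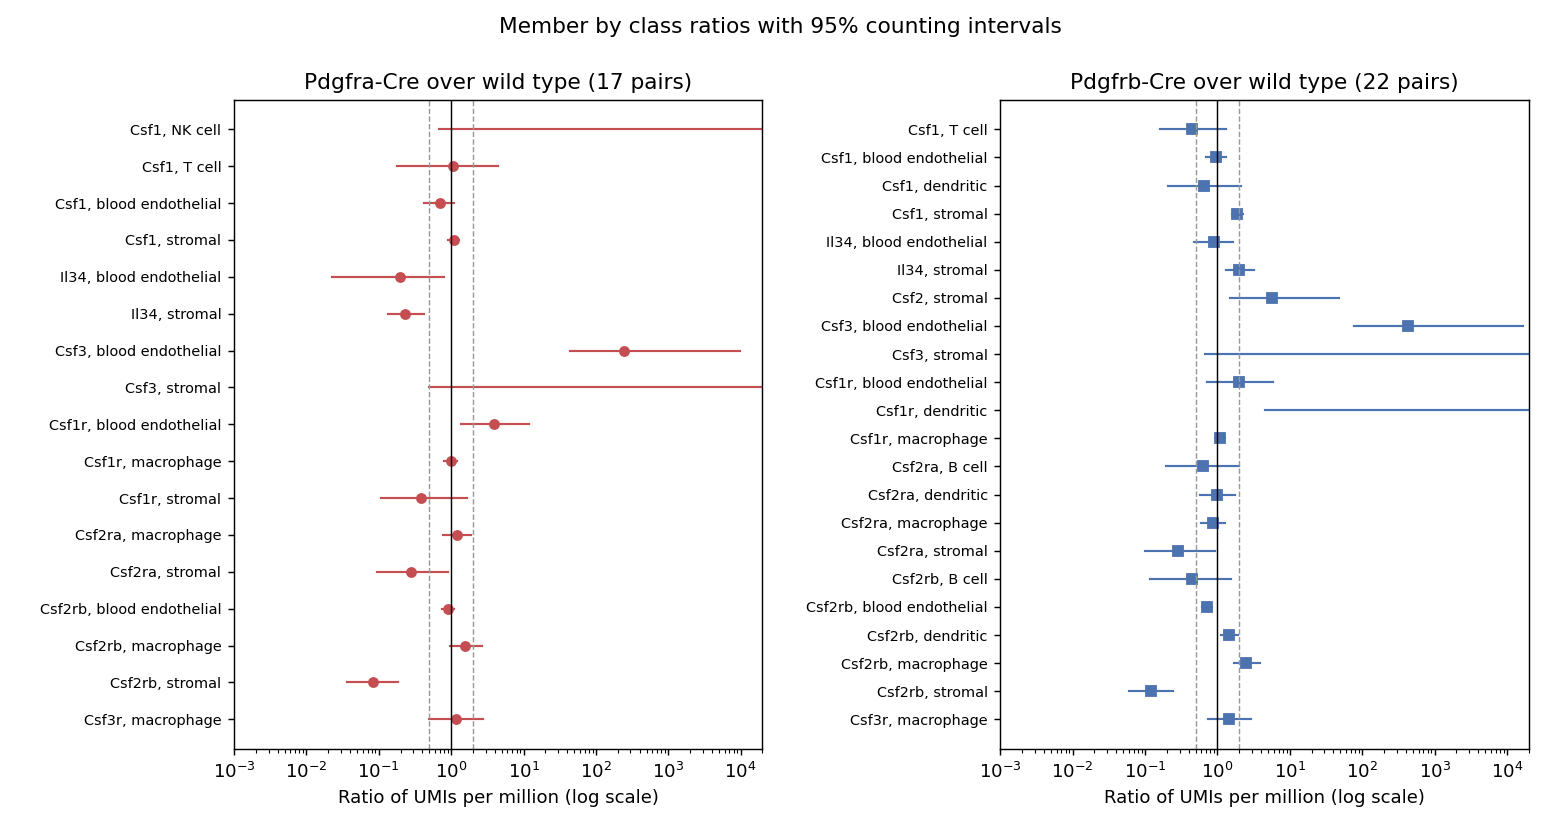
Ratios of class CPM over wild type for each member and class with enough UMIs, on a log axis, with exact 95% intervals for counting error and dashed lines at 2-fold, Pdgfra-Cre and Pdgfrb-Cre shown apart. Csf3 in blood endothelial cells stands farthest right (246 and 427), Csf1r in macrophages sits at 0.986 and 1.08, and stromal Csf2rb is farthest left (0.0832 and 0.121), while intervals without a point mark wild-type classes with 0 UMIs.

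Inducers and companions of the ligands were read from lists of pathway genes. Among 9 companion cytokines and chemokines, stromal cells had 5 higher and 1 lower of 9 counted in Pdgfra-Cre (median log2 ratio 1.36, against 0.04 for all genes), where 14.2% of all genes were higher and 11.3% lower. In Pdgfrb-Cre 6 were higher and 2 lower (median 4.22, against -0.16), where 9.62% and 15.7% of genes were. The neutrophil attractant Cxcl1 was 1789, 3215 and 116 CPM, ratios of 15.4 (12.7 to 18.98) and 27.7 (22.8 to 34.1). Il6 was 402 CPM in Pdgfrb-Cre and 16.2 in wild type, a ratio of 24.8 (14.7 to 45.3). The 1 lower gene in Pdgfra-Cre was Cxcl5, with 0 UMIs there and 110 CPM in wild type. In blood endothelial cells 2 of 6 were higher and 0 lower in Pdgfra-Cre, and 5 of 7 higher and 1 lower in Pdgfrb-Cre. Of all genes in those cells, 5.29% and 7.51% were higher in the 2 libraries and 12.1% and 11.0% lower. Cxcl2, another neutrophil attractant, was 132, 317 and 4.39 CPM there (ratios 30.02 and 72.1), alongside Csf3.

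Of the 9 inducers of CSF genes, macrophages had 2 of 4 higher and 0 lower in Pdgfra-Cre, and 2 of 6 higher and 0 lower in Pdgfrb-Cre. Of all macrophage genes, 10.2% and 13.8% were higher in those libraries and 16.8% and 13.5% lower. Il1b, a classical inducer of CSF3 in endothelium, was 501, 424 and 61.7 CPM, ratios of 8.12 (5.29 to 13) and 6.87 (4.56 to 10.8), and Tnf was 103, 111 and 28.3 CPM. In blood endothelial cells 2 of 7 were higher and 0 lower in Pdgfra-Cre, where 5.29% of all genes were higher and 12.1% lower. In Pdgfrb-Cre 1 of 7 was higher and 3 lower, where 7.51% and 11.0% of all genes were. There Tnf was 123 against 15.8 CPM in wild type, and Il1r1, the receptor for interleukin 1, was 27.4 against 61.5 CPM. In stromal cells 1 of 6 was higher and 2 lower in Pdgfra-Cre, where 14.2% of all genes were higher and 11.3% lower. In Pdgfrb-Cre 3 of 7 were higher and 1 lower, where 9.62% and 15.7% of all genes were. The interleukin 17 receptor Il17ra was 96.5 CPM in Pdgfrb-Cre and 37.1 in wild type, and Il33 was 16.3 CPM in Pdgfra-Cre and 85.8 in wild type.

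Genes on the receiving side were read in macrophages. Of 14 JAK-STAT genes of the GM-CSF and G-CSF receptors, 2 of 12 counted were higher and 2 lower in Pdgfra-Cre, and 6 of 14 higher and 1 lower in Pdgfrb-Cre. Of all macrophage genes, 10.2% were higher and 16.8% lower in Pdgfra-Cre, and 13.8% and 13.5% in Pdgfrb-Cre, shares that apply to the other macrophage lists too. The kinase gene Pim1, a STAT5 target, was 740, 1061 and 286 CPM, and the feedback inhibitor Socs3 was 384 CPM in Pdgfrb-Cre and 95.2 in wild type. Of 17 genes of CSF1R signalling and control, 2 were higher and 5 lower in Pdgfra-Cre, and 1 higher and 3 lower in Pdgfrb-Cre, with medians of -0.14 and -0.20 against -0.06 and -0.02 for all genes. Irf8, a factor of monocyte and dendritic cell development, was 41.6 CPM in Pdgfra-Cre and 288 in wild type, and Maf was 251 CPM in Pdgfrb-Cre and 823 in wild type. Of 18 mononuclear phagocyte genes, 1 was higher and 4 lower in Pdgfra-Cre, and 3 higher and 2 lower in Pdgfrb-Cre. With both directions added, the phagocyte counts in both libraries and the CSF1R signalling count in Pdgfrb-Cre lie near the shares of all genes. Chil3 was 582, 253 and 23.2 CPM and Cx3cr1 was 44.3, 25.7 and 139 CPM. Trem2, named as another IL-34 receptor, was 327, 214 and 280 CPM.

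Genes with the most similar pattern to each member were taken by Pearson correlation of log2(CPM + 10) over 24 sums of a class in a library with at least 30 cells, among 13678 genes. The sums share libraries and depth, so r describes a pattern and carries no test. Csf1 was closest to Nid1 (0.953), Adamts5 and Fkbp14, and Il34 to Ccdc3 (0.970), Adcy5 and Ntn4. Csf3 was closest to D830026I12Rik (0.978), Kcnc2 and Adgrg3. Csf2 had no gene above Sv2c (0.790). Csf1r was closest to Clec4a3 (0.973), Fcgr1 and Tbxas1, Csf2ra to Aif1 (0.987), Mpeg1 and Cfp, and Csf3r to Cd300ld (0.997), F13a1 and Clec4a3, where neutrophils had too few cells to enter. Csf2rb was closest to Nrp2 (0.943), then to its paralog Csf2rb2 (0.936) and to Fabp5.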

How the data were processed

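The authors deposited raw UMI counts per gene and barcode for the 3 libraries. Per the submitters' processing notes the tools were Cell Ranger 3.1.0 and STAR 2.6 on build mm10. Barcodes of 500 genes or more and up to 15% mitochondrial UMIs were kept, and the highest Scrublet doublet scores (0.8% per 1000 cells) were left out. Clustering used scanpy 1.11.5 (2000 variable genes, 30 components, 15 neighbours, Leiden resolution 1, no integration), without mitochondrial, ribosomal, sex-linked and family genes. Clusters were named from marker lists with at least 3 markers each seen in 10% of cells. Leaving haemoglobin out of leading genes and splitting cluster 0 once into clusters 0-0 to 0-7 were chosen after the clusters were seen, and names rebuilt here may differ from the authors' own.

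For each library, UMIs were summed over the cells of a class and given as counts per 1000000 (CPM). Intervals are exact at 95% (Poisson for CPM, conditional binomial for ratios, Clopper-Pearson for shares), cover counting error only and leave out spread between cells and animals, so they can be too narrow. A call is a ratio past 2-fold with at least 10 UMIs over both libraries in classes of at least 50 cells, and 0 was set to a floor of 3 UMIs per class. Thinned shares are expectations at 1000 UMIs per cell, without shallower cells. The calling step was tested on simulated counts. scipy 1.17.1 and numpy 2.4.6 were used.

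The members and the gene lists were chosen with earlier results of these data known. Each list names at most 3 genes per comparison, those with the largest absolute log2 ratio, and patterns name the 3 closest genes with at least 50 UMIs. Coordinates come from GENCODE M21, in which 99.86% of the feature identifiers were found. Cell Ranger's strand setting is not given in the sources used here, so UMIs of Il34, Csf2 and Csf1r could include those of annotated genes on the other strand (Gm15894 and Gm15895, Gm12223, Hmgxb3).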

Additional observations from a re-analysis of the deposited data

How the results depend on the processing

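No paired analysis was possible because each genotype is 1 library. Of 22 counts of member and class pairs past 2-fold, 21 stayed within 1.5 times their main value, and without a minimum UMI count the Pdgfrb-Cre count was 14 in place of 8. Of the recomputed log2 ratios, 358 stayed within their interval, 16 moved out of it and 2 that were past 2-fold turned round, both in Pdgfra-Cre blood endothelial cells: Csf1r, at -0.28 by the mean of CPM per cell, and Il34, at 0.18 with the stricter cell filter (1000 genes, 10%). Il34 in Pdgfrb-Cre blood endothelial cells, -0.17 on the log2 scale and not past 2-fold, was 1.12 and past it with that filter, and -0.58 to 0.57 under the others. The share of Csf1r UMIs in macrophages depended on the grouping. In Pdgfra-Cre it was 60.3% by CPM per cell, 69.1% with the stricter filter, 79.2% with doublets kept, 83.0% and 79.4% at Leiden resolutions 0.5 and 2, and 79.4% with the family among the clustering genes. In Pdgfrb-Cre it was 77.0%, 90.0%, 93.9%, 90.2% and 90.2% by CPM per cell, the stricter filter, resolutions 0.5 and 2 and the family included, and 85.6% without the top cell. In wild type it was 61.5%, 90.7% and 94.7% by CPM per cell, the stricter filter and resolution 0.5. The stromal share of Csf1 UMIs was 85.6% in Pdgfra-Cre at resolution 2 and 42.4% without cluster 5, 87.6% in Pdgfrb-Cre by CPM per cell and 92.3% without the top cell, and 56.2% in wild type with the stricter filter. Single calls changed too. Stromal Il34 in Pdgfrb-Cre passed 2-fold under 5 settings (2.002 to 2.52). By CPM per cell stromal Csf1r in Pdgfra-Cre (0.564) and Csf2ra in Pdgfrb-Cre (0.516) no longer passed, while macrophage Csf3r in Pdgfrb-Cre (2.23) did. Csf1 in T cells of Pdgfrb-Cre (0.574 at resolution 2, 0.536 without the top cell) no longer passed, and Csf1r in Pdgfrb-Cre endothelial cells was 10.0 with doublets kept. The cause was not tested. Leaving out the top cell, cluster 5 or haemoglobin-rich barcodes was chosen after the data were seen.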
